A study of Mus musculus with 8 samples.

Results

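Of the 53801 Ensembl gene IDs counted in resting B and T cells of the mouse, 54 were protein-coding genes of translation initiation. They were chosen by name, as the symbols that begin with Eif and a digit of 1 to 6. The pattern matched 65 symbols, and 11 of them were left out as 9 pseudogenes, the long noncoding RNA Eif2c5 and the Y-linked Eif2s3y. By role the genes fell into 6 for scanning and start codon choice, 5 for eIF2 and other carriers of initiator tRNA, 5 for eIF2B, 4 eIF2 kinases, 14 for eIF3, 12 for eIF4F with its helpers and relatives, 4 binding proteins of eIF4E and 4 for subunit joining and later steps. The study set the translatome beside the transcriptome of B and T cells. B cells and T cells came from spleens of B6 mice, were isolated with a magnetic sorting kit and were cultured for 2 h in complete RPMI medium, with no activating agent named in the labels. Ribosome footprints were taken from B cells (library numbers 1 and 3) and T cells (1 and 2) that had been treated with 100 µg/ml cycloheximide, an inhibitor of elongation, for 15 min before harvest. RNA-seq was made from B cells (1 and 3) and T cells (1 and 4) in the same resting state, so each of the 4 groups held 2 libraries.

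A ribosome starts on an mRNA when eIF2, bound to GTP, brings the initiator tRNA to the small subunit together with eIF1, eIF1A, eIF5 and eIF3. The eIF4F complex, made of the cap-binding eIF4E, the helicase eIF4A and the scaffold eIF4G, recruits that assembly to the capped end of the mRNA. Lymphocytes, like other cells, hold the pathway back at both of these steps. Kinases that phosphorylate the alpha subunit of eIF2 block its recharging by eIF2B, and the eIF4E-binding proteins occupy eIF4E until mTOR phosphorylates them.

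Several mRNAs of the translation machinery are known to carry an unbroken pyrimidine tract at their very start, the TOP motif, through which mTOR controls their loading onto ribosomes. The starts of 9 genes are shown. Of these, 7 had fewer footprints than mRNA in both cell types (values further on): Eif1, Eif2s3x, Eif3f, Eif3m, Eif4a2, Eif4ebp2 and Eif4g3. And 4, Eif2b5, Eif2s3x, Eif3f and Eif3l, have a run of at least 8 C or T letters over the annotated start, part of it upstream. Each window has 30 bases, 10 before the first base of a RefSeq transcript and 20 from it on, in GRCm38.p6. Capitals mark the unbroken run of C or T that covers that first base.
Eif3f (chr7:108934405-108934434, plus strand): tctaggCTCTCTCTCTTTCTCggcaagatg
Eif2s3x (chrX:94212632-94212661, minus strand): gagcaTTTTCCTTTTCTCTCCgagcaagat
Eif2b5 (chr16:20498807-20498836, plus strand): CTCTTTCTCTCCCTgcaactacaccttcgc
Eif3l (chr15:79075213-79075242, plus strand): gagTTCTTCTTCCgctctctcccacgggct
Eif4ebp2 (chr10:61452650-61452679, minus strand): cgcagcgggaCgaccgggcgagagcaggcg
Eif4a2 (chr16:23107458-23107487, plus strand): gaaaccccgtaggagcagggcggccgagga
Eif3m (chr2:105017008-105017037, minus strand): cggtcggcgtgtttctggatcggagcgtct
Eif1 (chr11:100319939-100319968, plus strand): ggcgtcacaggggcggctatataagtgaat
Eif4g3 (chr4:137993445-137993474, plus strand): tccgagcggCCgtcctgccggactgctgga
A promoter entry was found for 42 of the 54 genes, with 55 starts in all. A run of at least 8 letters, each C or T, on the transcribed strand and over the first base stood at 4 of the 55 starts (7.27%), and at 1268 of all 32851 RefSeq starts (3.86%). The run was 21 letters long in Eif2b5, where all but 4 lie before the annotated start and only 14 fall inside the window shown, 16 in Eif2s3x, 15 in Eif3f and 10 in Eif3l. From the first base on, it held 11 letters in Eif2s3x and in Eif3f but 3 in Eif3l. Most of the run was thus upstream in Eif2b5 and Eif3l. The minimum of 8 letters was chosen after these windows had been read, and a run is a description of the annotated start, not of the start used in these cells.

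The libraries held 236810 and 232568 footprint counts in B cells, against 627833 and 136433 in T cells, and 8945905 to 10050986 counts in each RNA-seq library. Levels are given in CPM, the usual scaling of counts to a common library size. The totals were those of the genes tested in the assay, adjusted by TMM within it, and marker sums used the unadjusted totals. A single count stood for 1.60 to 7.96 CPM in footprints, against 0.102 to 0.112 CPM in RNA-seq. The 54 genes took 0.670% and 0.729% of footprint counts in B cells, against 0.920% and 0.794% in T cells. In RNA-seq they took 1.04% and 0.983% in B cells, against 1.09% and 1.04% in T cells. Each sort carried its own markers, but some of the other cell: the 8 T cell markers summed to 74.6 and 532 CPM of mRNA in B cells, against 4324 and 4983 CPM in T cells, and the 8 B cell markers to 9604 and 10645 CPM in B cells, against 82.3 and 186 CPM in T cells. Natural killer cell markers, 8 genes, summed to 22.8 and 112 CPM of mRNA in B cells, against 464 and 677 CPM in T cells. In footprints the B cell markers summed to 210 and 652 CPM in T cells, and small RNA genes took 2.76% to 18.6% of counts in a library. The part of these in the results was not tested. The RNA-seq libraries numbered 1 stood apart from the other library in both cell types, with 0 counts of the Y-linked Eif2s3y, against 907 in B cell library 3 and 815 in T cell library 4, and differences shared by both are given near the end. Gene lengths were not used, so levels are compared between libraries and not between genes. In RNA from whole cell populations, fewer cells with an mRNA and less of that mRNA per cell cannot be told apart.

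At the mRNA level the general initiation machinery lay close together in B and T cells, and the genes that stood out encode inhibitors of it. Of 53 genes tested (Eif4e1b, a germ line relative of Eif4e, had 0 counts in all 8 libraries), 3 were higher in B cells, and 0 lower, at an adjusted p below 0.05 in edgeR's quasi-likelihood test, while 7 had an unadjusted p below 0.05. Over all 13929 genes tested, 4522 had an unadjusted p below 0.05 in edgeR. DESeq2 called the same 3 higher and 1 lower, Eif4ebp2. The 3 are the eIF2 kinase genes Eif2ak3 and Eif2ak4 and the eIF4E-binding protein gene Eif4ebp1. They are 5.66% of the genes tested, against 18.5% called over all 13929 genes tested (9.40% higher and 9.06% lower in B cells), so the share of initiation factor genes called was below that of the whole table. Their median log2 difference, B over T cells, was -0.02, as against -0.01 over all genes, and the 50 uncalled genes lay between -0.43 and 1.66. The 2 libraries of B cells lay apart from the 2 of T cells for 29 of the 53 genes (16 higher and 13 lower in B cells), or 54.7%, against 61.2% of all genes.

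**Figure D1:**
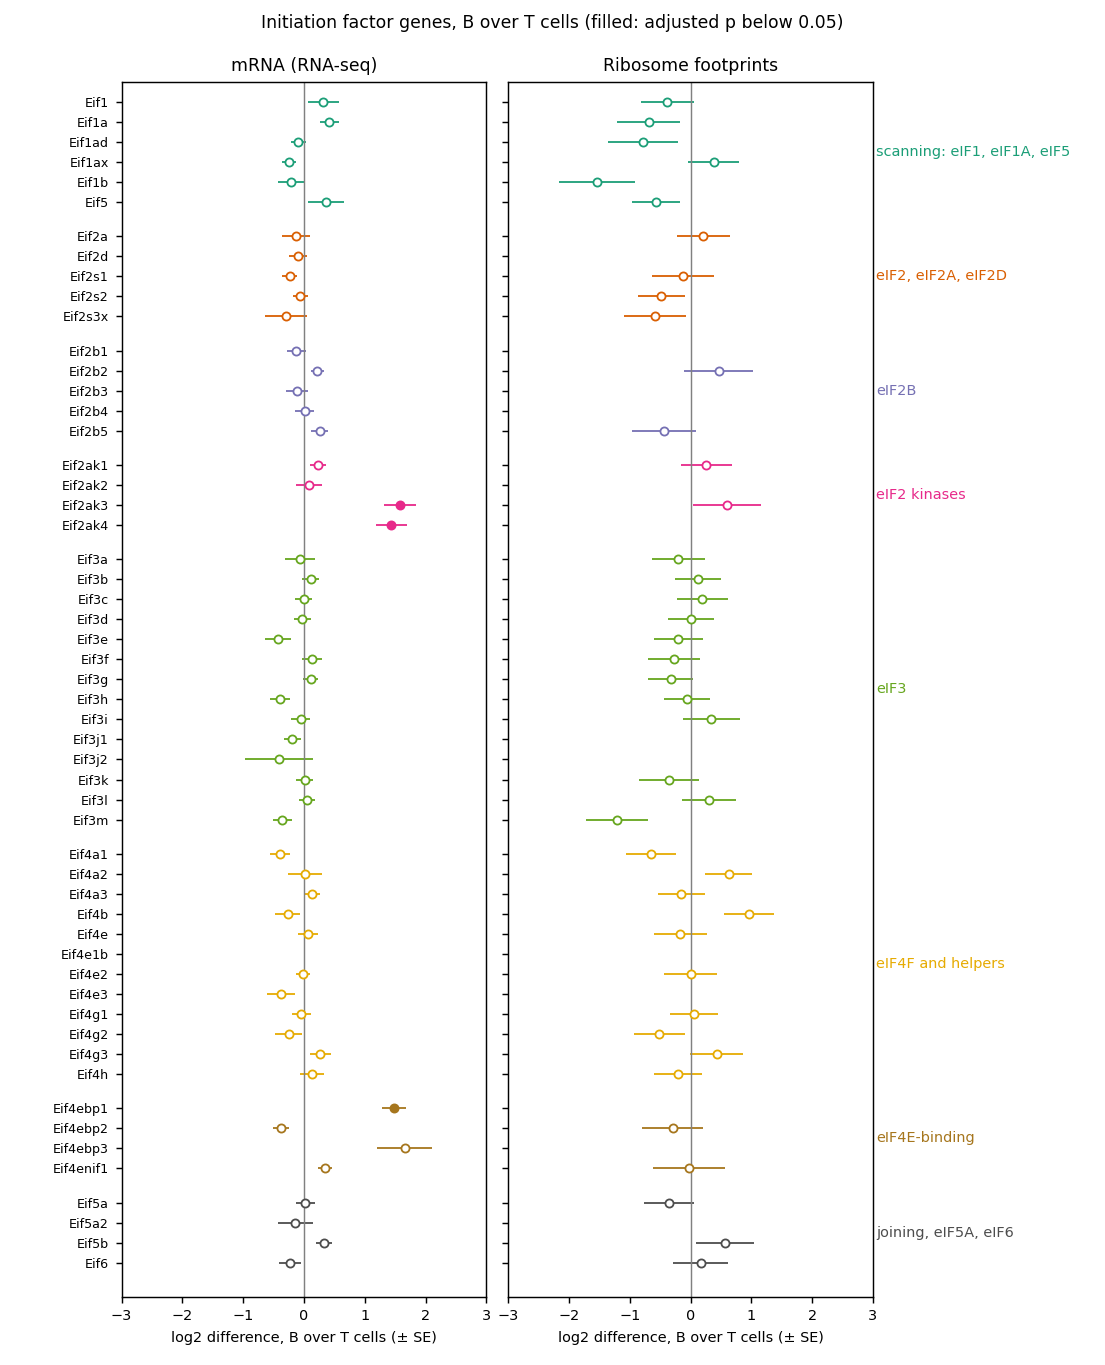
Log2 difference of B over T cells for each initiation factor gene, in mRNA (left) and in ribosome footprints (right), grouped by role; points are edgeR estimates, bars are ± 1 standard error (2 libraries per group) and filled points have an adjusted p below 0.05. Eif2ak3, Eif2ak4 and Eif4ebp1 stand to the right in mRNA, no point is filled in footprints, and a gene without a point was not tested.

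The eIF2 kinases each answer to a separate stress. Eif2ak3 (ENSMUSG00000031668, chromosome 6, 70844484-70905241, GRCm38.p6), which encodes PERK, the kinase of the endoplasmic reticulum that senses unfolded protein, had 104 and 81.8 CPM in B cells, against 37.9 and 24.1 CPM in T cells. Both B cell libraries were above both T cell libraries, with a log2 difference of 1.58 ± 0.27 (SE, adjusted p = 0.023). Eif2ak4 (ENSMUSG00000005102, chromosome 2, 118388583-118475234), which encodes GCN2, the sensor of uncharged tRNA, had 46.1 and 49.4 CPM in B cells, against 21.5 and 13.8 CPM in T cells. Its groups were also apart, with a log2 difference of 1.44 ± 0.25 (adjusted p = 0.0255). Eif2ak1 encodes HRI, the heme-regulated kinase, and had 80.3 and 94.7 CPM in B cells, against 76.0 and 72.8 CPM in T cells. Its libraries did not overlap, but the difference of 0.23 ± 0.13 missed the threshold (adjusted p = 0.307). Eif2ak2 encodes PKR, which double-stranded RNA activates, and its 15.6 and 19.2 CPM in B cells, against 15.5 and 17.4 CPM in T cells overlapped (0.08 ± 0.21, adjusted p = 0.831). Summed over the 4 kinases, mRNA came to 245 ± 0.52 CPM in B cells and 140 ± 16.1 CPM in T cells (SD, n = 2 each).

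The calls of the kinases rested on few libraries. Without B cell library 3 the adjusted p of Eif2ak4 was 0.0745, and with all 8 libraries in a single fit that of Eif2ak3 was 0.0773. Eif2ak3 holds a small nucleolar RNA gene, Gm23346, within its bounds, which had 20 and 31 RNA-seq counts in B cells, against 0 and 9 in T cells. Plasma cell markers, which include genes of the secretory pathway, differed between and within the same groups: their 6 genes, none at 0, summed to 2350 and 976 CPM of mRNA in B cells, against 1162 and 153 CPM in T cells. Their part in the result was not tested.

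Of the 4 binding proteins of eIF4E, which keep it from eIF4G, 1 was called in mRNA and all 4 had an unadjusted p below 0.05. Eif4ebp1 (ENSMUSG00000031490, chromosome 8, 27260327-27275656) had 24.6 and 22.8 CPM in B cells, against 7.83 and 9.09 CPM in T cells. The B cell libraries were above both T cell libraries, with a log2 difference of 1.49 ± 0.20 (adjusted p = 0.0132; 0.0501 without B cell library 1). Eif4ebp3 pointed the same way from very few reads, 17 and 16 counts in B cells, against 6 and 5 counts in T cells, and missed the threshold (1.66 ± 0.45, adjusted p = 0.0701). Eif4ebp2 pointed the other way, with 207 and 212 CPM in B cells, against 266 and 278 CPM in T cells. Its groups were apart, and its difference of -0.38 ± 0.14 was not called by edgeR (adjusted p = 0.138) but was by DESeq2 (adjusted p = 0.033). The ratio of Eif4ebp1 to Eif4ebp2 counts, in which gene length cancels between libraries, was 0.119 and 0.108 in B cells, against 0.0295 and 0.0327 in T cells. Eif4enif1, whose product carries eIF4E into the nucleus, had 85.5 and 86.5 CPM in B cells, against 71.0 and 64.1 CPM in T cells, apart in the same direction as Eif4ebp1 but uncalled (0.35 ± 0.11, adjusted p = 0.11). Summed over the 4 binding proteins, mRNA was not higher in B cells. It came to 321 ± 3.47 CPM in B cells and 348 ± 4.89 CPM in T cells (SD, n = 2 each).

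**Figure D2:**
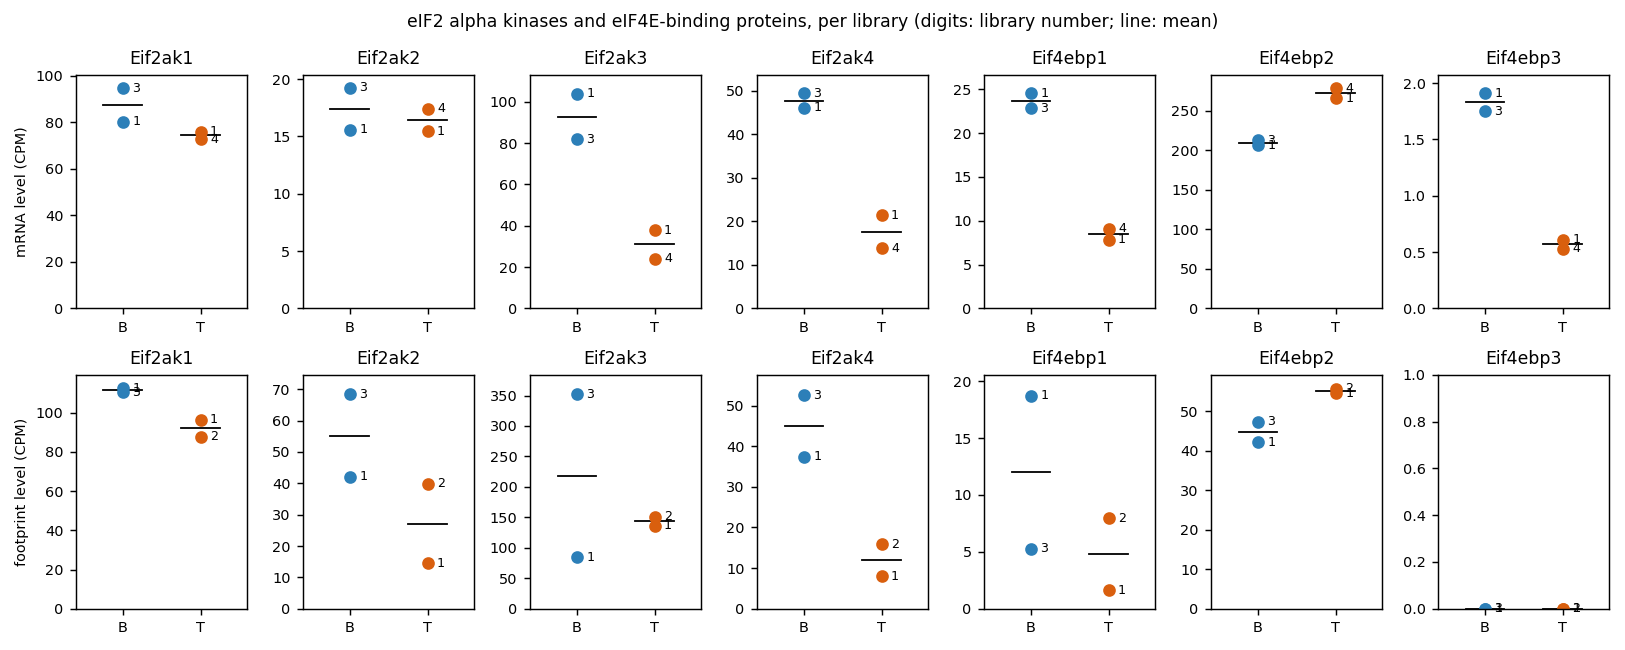
Level in CPM of the eIF2 kinase genes and the eIF4E-binding protein genes in each library, for mRNA (upper row) and ribosome footprints (lower row), with B cells left of T cells; digits are library numbers, lines are means of 2 libraries and each axis starts at 0. Eif2ak3, Eif2ak4 and Eif4ebp1 mRNA is higher in both B cell libraries, the B cell footprints of Eif2ak3 are spread from 84.2 to 352 CPM, and Eif4ebp3 has no footprint.

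The cap-binding complex itself showed no called difference in mRNA (11 of 12 genes tested, 0 higher and 0 lower, 0 at an unadjusted p below 0.05 in edgeR and 0 called in DESeq2), with log2 differences from -0.39 to 0.27. Eif4e, the cap-binding protein, had 50.4 and 42.8 CPM in B cells, against 40.7 and 48.3 CPM in T cells (0.07 ± 0.17). The helicase gene Eif4a1 had the lowest difference of the list, with 366 and 388 CPM in B cells, against 458 and 529 CPM in T cells, apart but uncalled (-0.39 ± 0.16, adjusted p = 0.186). Its paralogue Eif4a2 had 828 and 554 CPM in B cells, against 792 and 577 CPM in T cells, and here the 2 libraries of each cell type lay farther from each other than the cell types did (0.01 ± 0.28). Of the scaffolds, Eif4g1 had 282 and 270.2 CPM in B cells, against 303 and 264 CPM in T cells (-0.04 ± 0.15). Eif4g3, its paralogue, had the highest difference of the list, with 184 and 159 CPM in B cells, against 159 and 127 CPM in T cells (0.27 ± 0.18, adjusted p = 0.373). Eif4g2, a scaffold relative that does not bind eIF4E, had 678 and 546 CPM in B cells, against 823 and 632 CPM in T cells (-0.25 ± 0.22), and its groups overlapped. Eif4b, which stimulates the helicase, had 426 and 355 CPM in B cells, against 525 and 414 CPM in T cells, also overlapping (-0.27 ± 0.20).

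eIF3, the largest initiation factor, bridges the small subunit and eIF4G. All 14 of its genes were tested in mRNA, and edgeR and DESeq2 called 0 of them, with 0 at an unadjusted p below 0.05. Their log2 differences ran from -0.43 for Eif3e, with 377 and 319 CPM in B cells, against 535 and 402 CPM in T cells, to 0.13 for Eif3f, with 755 and 670.2 CPM in B cells, against 656 and 642 CPM in T cells. The median was -0.04, and the sum over the complex was 3459 ± 221 CPM in B cells and 3681 ± 231 CPM in T cells (SD, n = 2 each). Eif3j2 is a near-identical copy of Eif3j1, so the 0.90 to 2.03 CPM counted for it in a library may depend on how reads shared by the copies were counted.

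The genes of eIF2 and of its exchange factor were as close. The 5 genes of the eIF2 list had 0 calls in either tool and 0 at an unadjusted p below 0.05, with log2 differences from -0.30 to -0.06. Eif2s1, the alpha subunit on which the kinases act, had 61.3 and 70.6 CPM in B cells, against 80.4 and 75.0 CPM in T cells, apart but uncalled (-0.24 ± 0.13, adjusted p = 0.285). Eif2s2, the beta subunit, had the difference nearest to 0 (-0.06 ± 0.13), with 117 and 108 CPM in B cells, against 123 and 112 CPM in T cells. Eif2s3x, the X-linked gamma subunit, had 199 and 119 CPM in B cells, against 239 and 152 CPM in T cells, so its libraries differed more within a cell type than between cell types (-0.30 ± 0.34). For eIF2B, the exchange factor that the kinases block through eIF2, 0 of 5 genes were called in either tool and 0 had an unadjusted p below 0.05. They ran from -0.13 for Eif2b1, with 28.6 and 32.6 CPM in B cells, against 34.2 and 32.7 CPM in T cells, to 0.26 for the catalytic Eif2b5, with 68.9 and 83.1 CPM in B cells, against 61.4 and 65.4 CPM in T cells.

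Among the scanning factors, 0 of 6 genes were called in mRNA in edgeR, 1 had an unadjusted p below 0.05 and 0 were called in DESeq2. Eif1, which keeps the ribosome from starting at wrong codons, had 1451 and 998 CPM in B cells, against 1087 and 875 CPM in T cells, overlapping (0.32 ± 0.26). Its paralogue Eif1b had 36.8 and 43.7 CPM in B cells, against 38.4 and 54.5 CPM in T cells (-0.21 ± 0.22). Eif1a, the autosomal gene of eIF1A, had 49.7 and 42.2 CPM in B cells, against 35.5 and 33.3 CPM in T cells, apart and higher in B cells but uncalled (0.42 ± 0.16, adjusted p = 0.15). Eif1ax, its X-linked partner, had 54.8 and 58.2 CPM in B cells, against 69.2 and 64.5 CPM in T cells, apart and lower, also uncalled (-0.24 ± 0.12, adjusted p = 0.232). The ratio of Eif1a to Eif1ax RNA-seq counts was thus 0.908 and 0.726 in B cells, against 0.512 and 0.516 in T cells. In footprints the ratio pointed the other way, at 0.28 and 0.577 in B cells, against 0.918 and 0.917 in T cells. It rested there on 7 and 15 Eif1a counts in B cells, against 56 and 11 in T cells. Eif5, which triggers GTP hydrolysis by eIF2 at the start codon, had 415 and 287 CPM in B cells, against 330.2 and 218 CPM in T cells, overlapping (0.36 ± 0.30).

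For subunit joining and later steps, 0 of 4 genes were called in mRNA in either tool and 0 had an unadjusted p below 0.05. Eif5b, the GTPase that joins the subunits, had 154 and 136 CPM in B cells, against 118 and 113 CPM in T cells (0.33 ± 0.13, adjusted p = 0.176). Eif6, which keeps the large subunit from joining early, had 79.5 and 95.2 CPM in B cells, against 90.4 and 115 CPM in T cells (-0.23 ± 0.18). Eif5a, whose hypusinated product helps the ribosome past difficult stretches, had 564 and 556 CPM in B cells, against 555 and 546 CPM in T cells, the same to within its spread (0.02 ± 0.15).

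In ribosome footprints, which report the ribosomes on all copies of a gene's mRNA together, none of the initiation factor genes was called between B and T cells. Of 54 genes 41 had enough footprints to be tested, 0 were called by edgeR, 3 had an unadjusted p below 0.05 and 0 were called by DESeq2, against 13.2% called of all 4771 genes (8.38% higher and 4.80% lower in B cells). Their median log2 difference was -0.15, as against 0.02 over all genes. An unadjusted p below 0.05 in edgeR was found for 1132 of all 4771 genes. The groups lay apart for 17 of the 41 (6 higher and 11 lower in B cells), or 41.5%, against 52.1% of all genes. The standard error of a log2 difference was 0.368 to 0.624 for these genes, so differences of the size seen in mRNA for most of them were not detectable at this depth. With RNA-seq counts thinned to the total of the smallest footprint library, 0 of the genes were called in mRNA as well.

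The 3 genes with an unadjusted p below 0.05 in footprints were Eif4b, Eif1b and Eif3m, which were also the extremes of their lists. Eif4b had 351 and 252 CPM in B cells, against 185 and 111 CPM in T cells, apart and higher in B cells (0.96 ± 0.41, adjusted p = 0.172). Eif1b had 18.7 and 15.8 CPM in B cells, against 53.0 and 47.8 CPM in T cells, from 4 and 3 counts in B cells, against 33 and 6 counts in T cells (-1.54 ± 0.62, adjusted p = 0.153). Eif3m, one of the eIF3 subunits with a PCI domain, had 46.8 and 57.8 CPM in B cells, against 152 and 71.7 CPM in T cells (-1.21 ± 0.50, adjusted p = 0.168). In all 3 the libraries did not overlap, as for 52.1% of all genes, and none of the 3 differed as much in mRNA. The 3 were picked by their footprint p, so neither observation adds support.

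In the scanning list, which also holds Eif1ad, all genes but Eif1ax had lower footprint estimates in B cells (5 of 6 below 0, median -0.63). Of these 6 genes 0 were called. Eif5 had 594 and 578 CPM in B cells, against 844 and 899.8 CPM in T cells, apart but uncalled (-0.57 ± 0.40, adjusted p = 0.464). Eif1 had 183 and 352 CPM in B cells, against 412 and 271 CPM in T cells, overlapping (-0.38 ± 0.44). Eif1ax was the exception, with 117 and 137 CPM in B cells, against 97.9 and 95.6 CPM in T cells (0.38 ± 0.42). The summed footprints of the 6 genes were 1114 ± 179 CPM in B cells and 1566 ± 4.04 CPM in T cells (SD, n = 2 each), while their summed mRNA was 1767 ± 407 CPM in B cells and 1455 ± 221 CPM in T cells.

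Within the helicase pair the footprints leaned apart. Eif4a1 had 201 and 289 CPM in B cells, against 459 and 295 CPM in T cells (-0.65 ± 0.41, adjusted p = 0.409). Eif4a2 had 304 and 231 CPM in B cells, against 201 and 135 CPM in T cells (0.63 ± 0.39, adjusted p = 0.398). The ratio of Eif4a1 to Eif4a2 footprints was 0.662 and 1.25 in B cells, against 2.29 and 2.18 in T cells, and that of their RNA-seq counts was 0.442 and 0.701 in B cells, against 0.578 and 0.916 in T cells. Both genes host small nucleolar RNA genes, whose reads could be counted with them.

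Of the rest of the cap complex, Eif4e had 79.6 and 73.6 CPM in B cells, against 89.9 and 79.6 CPM in T cells (-0.17 ± 0.44). Eif4g1 had 248 and 263 CPM in B cells, against 194 and 311 CPM in T cells (0.06 ± 0.40). Eif4g2 had 463 and 699 CPM in B cells, against 806 and 852 CPM in T cells, apart but uncalled (-0.51 ± 0.42, adjusted p = 0.547). Eif4g3 leaned the other way, with 103 and 94.6 CPM in B cells, against 78.6 and 63.7 CPM in T cells (0.43 ± 0.44). Eif2s1 had 42.1 and 73.6 CPM in B cells, against 65.8 and 55.7 CPM in T cells (-0.12 ± 0.51), and the 12 eIF3 genes tested summed with the other 2 to 2769 ± 434 CPM in B cells and 2970 ± 348 CPM in T cells. Eif5a had 360.4 and 489 CPM in B cells, against 621 and 454 CPM in T cells (-0.35 ± 0.40). Eif6 had 88.9 and 110.4 CPM in B cells, against 75.4 and 111 CPM in T cells (0.17 ± 0.45), and Eif5b, the highest of the joining list, had 304 and 142 CPM in B cells, against 114 and 207 CPM in T cells (0.57 ± 0.47). In the eIF2 list the estimates ran from -0.59 ± 0.52 for Eif2s3x to 0.21 ± 0.43 for Eif2a, a proposed carrier of initiator tRNA, and Eif3i was the highest of eIF3 at 0.34 ± 0.47. Eif4enif1 was at -0.02 ± 0.59. Eif2b2 and Eif2b5, the only eIF2B genes with enough footprints to test, had estimates of 0.46 ± 0.57 and -0.44 ± 0.53.

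For the genes that were higher in B cells in mRNA, footprints were few or uneven. Eif2ak3 had 18 and 67 counts in B cells, against 85 and 19 counts in T cells, or 84.2 and 352 CPM in B cells, against 136 and 151 CPM in T cells. One B cell library was above and the other below both T cell libraries, and the difference was uncalled (0.60 ± 0.56, adjusted p = 0.604). Eif2ak3 was called higher in B cells without B cell library 1, a fit in which only the library at 352 CPM stood for B cells and was taken to vary like the T cell libraries. Eif2ak4 had 8 and 10 counts in B cells, against 5 and 2 counts in T cells, too few to pass the filter. Its levels of 37.4 and 52.6 CPM in B cells, against 8.02 and 15.9 CPM in T cells were apart in the same direction as its mRNA, and without the filter the log2 difference was 2.08 ± 0.84 (adjusted p = 0.142). Eif4ebp1 had 4 and 1 counts in B cells, against 1 and 1 counts in T cells, also below the filter, and the groups overlapped. Eif4ebp2 had 42.1 and 47.3 CPM in B cells, against 54.6 and 55.7 CPM in T cells, apart and lower in B cells but uncalled (-0.30 ± 0.51, adjusted p = 0.814). Eif4ebp3 had 0 footprints in all 4 libraries, where 3 counts would have been 4.81 to 23.9 CPM. Eif2ak1 had 112 and 110.4 CPM in B cells, against 96.3 and 87.6 CPM in T cells (0.26 ± 0.42), and Eif2ak2, with 9 and 13 counts in B cells, against 9 and 5 counts in T cells, was not tested.

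Translational efficiency, the footprints of a gene relative to its mRNA, did not differ detectably between B and T cells for any initiation factor gene. Of 51 genes tested 0 were called in edgeR, 5 had an unadjusted p below 0.05 and 0 were called in DESeq2, and over all 13227 genes the share called was 0%. An unadjusted p below 0.05 in edgeR was found for 748 of all 13227 genes. DESeq2 gave no adjusted p for 14 of the 51 genes. The 5 were Eif4b (1.22 ± 0.49), Eif2d (1.22 ± 0.47), Eif1b (-1.38 ± 0.53), Eif1a (-1.12 ± 0.49) and Eif5a2. Eif5a2, a paralogue of Eif5a, had 0 footprints in both B cell libraries, against 8 and 1 counts in T cells, so no fitted size is given. Eif2d encodes a carrier of initiator tRNA that works without GTP, and its footprints were 60.8 and 42.1 CPM in B cells, against 25.7 and 15.9 CPM in T cells, with 51.5 and 57.5 CPM in B cells, against 63.2 and 53.0 CPM in T cells of mRNA. The smallest adjusted p among the 51 genes was 0.875. The median log2 difference was -0.14, as against 0.03 over all genes, and it was -0.14 also with Eif5a2 at its bound of 3 counts. Among the scanning genes Eif5 was at -0.91 ± 0.44, Eif1 at -0.71 ± 0.58 and Eif1ax, the highest of the list, at 0.62 ± 0.32. For the kinases the estimates ran from -0.98 ± 0.74 for Eif2ak3 to 1.31 ± 0.62 for Eif2ak2, with Eif2ak4 at 0.74 ± 0.63 and Eif2ak1 at 0.01 ± 0.34. In the eIF2 list the lowest was Eif2s2 at -0.43 ± 0.37, with Eif2s1 at 0.09 ± 0.43. In the eIF3 list they ran from -0.89 ± 0.54 for Eif3m to 0.38 ± 0.54 for Eif3i, and in the eIF2B list from -0.72 ± 0.42 for Eif2b5 to 0.26 ± 0.44 for Eif2b2. Of the other genes of the cap complex, Eif4a2 was at 0.61 ± 0.51, Eif4a1 at -0.27 ± 0.47, Eif4e at -0.25 ± 0.37, Eif4g1 at 0.13 ± 0.38, Eif4g2 at -0.25 ± 0.44 and Eif4g3 at 0.14 ± 0.39. Eif4e3, a relative of Eif4e, was the lowest of that list at -1.01 ± 1.41, from 1 and 0 counts in B cells, against 5 and 0 counts in T cells. Of the binding proteins, Eif4ebp1 was at 0.63 ± 1.06, Eif4ebp2 at 0.06 ± 0.38 and Eif4enif1 at -0.35 ± 0.53. Eif6, the highest of the joining list, was at 0.41 ± 0.40, and Eif5a at -0.38 ± 0.42.

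Within each cell type, the footprints of a gene were set against its mRNA. In B cells 2 initiation factor genes had more footprints than mRNA and 9 had fewer, of 51 tested, and in T cells 4 had more and 12 had fewer. These counts rested on single libraries: without B cell RNA-seq library 1, 0 had more and 3 had fewer in B cells, without T cell footprint library 1, 0 had more and 6 had fewer in T cells, and without T cell footprint library 2, 3 had more and 4 had fewer. Over all 13227 genes the share called was 18.8% in B cells (6.51% upward and 12.3% downward) and 27.5% in T cells (8.91% upward and 18.6% downward). The initiation factor genes were called upward at 3.92% and downward at 17.6% in B cells, and at 7.84% and 23.5% in T cells. Their median log2 ratio was -0.43 in B cells (-0.43 with Eif5a2 at its bound) and -0.42 in T cells, as against -0.44 and -0.54 over all genes. The ratio compares assays with unlike libraries, and its zero depends on the scaling: size factors of the DESeq2 kind moved the median of all genes by 0.10 in B cells and 0.12 in T cells. CPM were scaled within each assay, while the ratios come from a single fit of all 8 libraries. A footprint CPM set against an mRNA CPM thus need not give the ratio printed beside it. Coding lengths were not used, and the counted feature was not given. A ratio may thus also depend on how much of a transcript is coding, so ratios do not rank genes by translation. The 7 genes that were lower in both cell types are among those whose starts are shown above, and 0 genes were higher in both. They are 13.7% of the 51 genes tested, against 9.77% called lower in both over all genes (4.83% were higher in both). With a library left out 2 to 5 of the 7 were lower in both, 2 of them (Eif4a2 and Eif4ebp2) without T cell footprint library 2. RLE scaling ended the calls of Eif2s3x and Eif3f in T cells, DESeq2 and TMM within each assay that of Eif2s3x in T cells, and testing without the filter that of Eif4g3 in B cells. Eif4ebp2 was the single gene called in both cell types under every alternative run. A call in one cell type and not in the other shows no difference between them, and the efficiency contrast was uncalled for every gene.

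Of the 7 genes lower in both cell types, Eif4ebp2, a brake on eIF4E, had the lowest ratios. In B cells it had 42.1 and 47.3 CPM of footprints, against 207 and 212 CPM of mRNA, and in T cells 54.6 and 55.7 CPM of footprints, against 266 and 278 CPM of mRNA. Every footprint library lay below every RNA-seq library in CPM scaled within its assay. The log2 ratios were -2.45 ± 0.27 in B cells (adjusted p = 0.00109) and -2.52 ± 0.26 in T cells (adjusted p = 0.000553). Eif4ebp2 was called under each of the 14 alternatives run in both cell types. Among these, the replicate block rests on a single library per assay in T cells, and each fit without a library leaves a single library in a group. Its annotated start has a single C at the first base and no longer run.

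The helicase gene Eif4a2 had 304 and 231 CPM of footprints, against 828 and 554 CPM of mRNA in B cells. In T cells it had 201 and 135 CPM of footprints, against 792 and 577 CPM of mRNA. The log2 ratios were -1.59 ± 0.37 in B cells (adjusted p = 0.0192) and -2.20 ± 0.37 in T cells (adjusted p = 0.00452). Its paralogue Eif4a1 was uncalled in both, at -0.85 ± 0.34 and -0.58 ± 0.33. Eif4g3 had 103 and 94.6 CPM of footprints, against 184 and 159 CPM of mRNA in B cells and 78.6 and 63.7 CPM of footprints, against 159 and 127 CPM of mRNA in T cells, with ratios of -1.02 ± 0.28 (adjusted p = 0.0353) and -1.16 ± 0.28 (adjusted p = 0.0165). The other scaffolds were near 0, with Eif4g1 at -0.34 ± 0.27 in B cells and -0.46 ± 0.27 in T cells, and Eif4g2 at -0.30 ± 0.31 and -0.05 ± 0.31. Eif4b was called in T cells alone, at -1.81 ± 0.35 (adjusted p = 0.00777), with 185 and 111 CPM of footprints, against 525 and 414 CPM of mRNA. In B cells Eif4b had 351 and 252 CPM of footprints, against 426 and 355 CPM of mRNA (-0.59 ± 0.34, adjusted p = 0.243), and the difference between the cell types is the efficiency contrast above, which was uncalled. Eif4e was uncalled, at 0.49 ± 0.27 in B cells and 0.75 ± 0.25 in T cells (adjusted p = 0.0587), as was its relative Eif4e2, which holds the cap of repressed mRNAs, at 0.88 ± 0.32 and 0.88 ± 0.31. Eif4e3 had the lowest ratio of the list in B cells, from 1 and 0 counts in B cells, against 5 and 0 counts in T cells, and was uncalled (-2.12 ± 1.07).

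**Figure D3:**
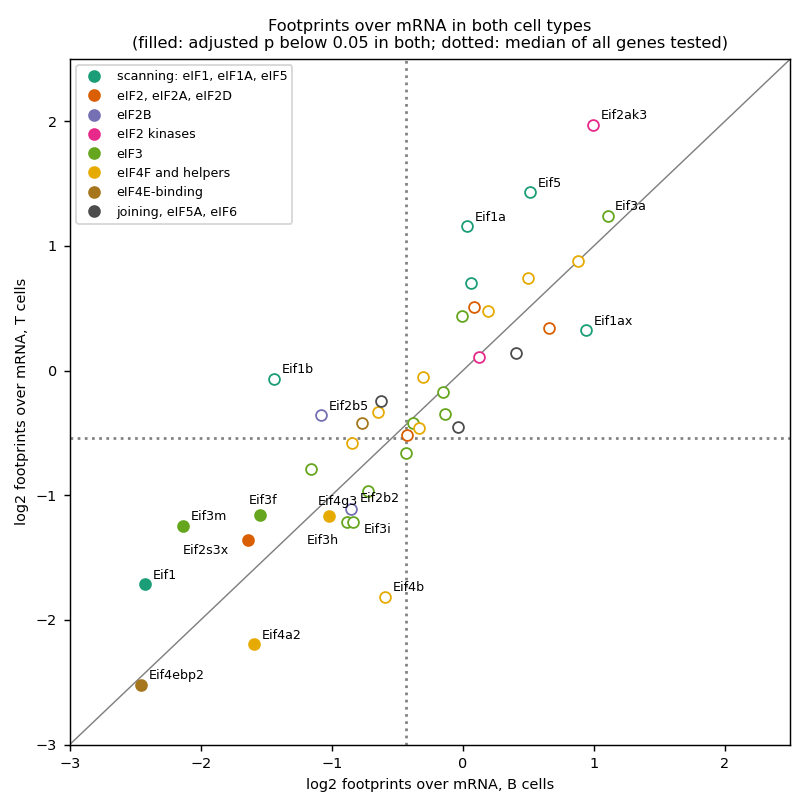
Log2 ratio of footprints over mRNA in B cells (horizontal) and T cells (vertical) for the 41 initiation factor genes tested in footprints, coloured by role; filled points have an adjusted p below 0.05 in both cell types, dotted lines are the medians of all genes tested (-0.44 and -0.54) and the diagonal marks equal ratios. The 7 filled points lie in the lower left, with Eif4ebp2 lowest, and Pearson's r over the 41 genes was 0.851.

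In the scanning group 1 gene, Eif1, was lower in both cell types. Eif1 had 183 and 352 CPM of footprints, against 1451 and 998 CPM of mRNA in B cells. In T cells it had 412 and 271 CPM of footprints, against 1087 and 875 CPM of mRNA. The ratios were -2.42 ± 0.43 (adjusted p = 0.00705) in B cells and -1.71 ± 0.41 (adjusted p = 0.0177) in T cells. Eif1b was called in B cells alone (-1.44 ± 0.42, adjusted p = 0.0464, against -0.06 ± 0.31 in T cells). That call came from 4 and 3 footprint counts in B cells and was lost in several alternatives. The adjusted p was 0.0574 under RLE scaling, 0.101 in DESeq2, 0.0688 without the filter and 0.0544 with TMM within each assay. Over protein-coding genes only it was 0.0565. Eif1ax had more footprints than mRNA in B cells (0.94 ± 0.23, adjusted p = 0.0254), and Eif1a and Eif5 in T cells (1.16 ± 0.33, adjusted p = 0.0314, and 1.43 ± 0.31, adjusted p = 0.0125). Eif5 had 844 and 899.8 CPM of footprints, against 330.2 and 218 CPM of mRNA in T cells, and 594 and 578 CPM of footprints, against 415 and 287 CPM of mRNA in B cells (0.52 ± 0.31, adjusted p = 0.266).

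eIF3 subunits, which act as a single complex, had footprint ratios that spread widely. The part of their unlike coding lengths in that spread was not tested. In B cells 2 of 13 genes tested were lower and 0 higher, and in T cells 4 were lower and 1 higher, or 15.4% and 38.5% of the list, against 18.8% and 27.5% of all genes. Eif3m had 46.8 and 57.8 CPM of footprints, against 211 and 181 CPM of mRNA in B cells (-2.13 ± 0.40, adjusted p = 0.00935) and 152 and 71.7 CPM of footprints, against 262 and 238 CPM of mRNA in T cells (-1.24 ± 0.35, adjusted p = 0.0315). Eif3f, whose start holds 11 pyrimidines from the first base on, had 197 and 373 CPM of footprints, against 755 and 670.2 CPM of mRNA in B cells (-1.55 ± 0.34, adjusted p = 0.0153). In T cells Eif3f had 305 and 390.2 CPM of footprints, against 656 and 642 CPM of mRNA (-1.16 ± 0.33, adjusted p = 0.0324). Eif3a, the largest subunit, pointed upward, with 743 and 605 CPM of footprints, against 279.6 and 209.5 CPM of mRNA in T cells (1.24 ± 0.37, adjusted p = 0.0368) and 421 and 757 CPM of footprints, against 275 and 192 CPM of mRNA in B cells (1.11 ± 0.37, adjusted p = 0.069). Eif3h and Eif3i were lower in T cells (-1.22 ± 0.29 and -1.22 ± 0.38) and uncalled in B cells (-0.89 ± 0.30 and -0.84 ± 0.39). Eif3l, the fourth gene with a run over its annotated start, had only 3 letters of it from the first base on. It was uncalled in both cell types, at -0.43 ± 0.38 in B cells and -0.66 ± 0.38 in T cells.

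Of the eIF2 and eIF2B genes, Eif2s3x had 46.8 and 73.6 CPM of footprints, against 199 and 119 CPM of mRNA in B cells (-1.64 ± 0.45, adjusted p = 0.0359). In T cells it had 69.0 and 127 CPM of footprints, against 239 and 152 CPM of mRNA (-1.36 ± 0.41, adjusted p = 0.041). Its Y-linked homologue was left out by the rule, and reads shared by the 2 genes may be counted in either. The homologue, Eif2s3y, had 18 and 14 footprint counts in B cells, against 0 and 907 RNA-seq counts. In T cells it had 1 and 5 footprint counts, against 0 and 815 RNA-seq counts. The libraries of the 2 assays thus differ in it, and its part in the Eif2s3x ratio was not tested. Eif2s1 was at -0.43 ± 0.31 in B cells and -0.52 ± 0.29 in T cells, and neither was called. The highest of the list were Eif2a in B cells (0.66 ± 0.31) and Eif2s2 in T cells (0.51 ± 0.26), and of eIF2B it was Eif2b1 in both (-0.04 ± 0.36 and 0.14 ± 0.32), all uncalled. Eif2b5, whose run lies mostly upstream of the annotated start, was lower in B cells (-1.08 ± 0.31, adjusted p = 0.0438) and uncalled in T cells (-0.36 ± 0.28). Eif2b2 and Eif2d were lower in T cells (-1.11 ± 0.31, adjusted p = 0.0289, and -1.51 ± 0.34, adjusted p = 0.013). The call of Eif2b5 was lost under RLE scaling (adjusted p = 0.0574), in DESeq2, without the filter and with TMM within each assay, and under RLE scaling those of Eif2s3x and Eif3f in T cells were lost too (adjusted p = 0.0643 and 0.0545).

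Among the kinases, Eif2ak3 had more footprints than mRNA in T cells, with 136 and 151 CPM of footprints, against 37.9 and 24.1 CPM of mRNA (1.97 ± 0.54, adjusted p = 0.029). In B cells it had 84.2 and 352 CPM of footprints, against 104 and 81.8 CPM of mRNA (0.99 ± 0.53, adjusted p = 0.211). Eif2ak2 had more in B cells, with 42.1 and 68.4 CPM of footprints, against 15.6 and 19.2 CPM of mRNA (1.43 ± 0.42, adjusted p = 0.0467), and was at 0.12 ± 0.47 in T cells. Its B cell ratio rested on 9 and 13 footprint counts and was 1.02 to 1.71 with a B cell library left out. With the replicate block it was uncalled (adjusted p = 0.115). Eif2ak1 was near 0 in both (0.13 ± 0.24 and 0.11 ± 0.24), and Eif2ak4 was uncalled (-0.32 ± 0.38 in B cells and -1.06 ± 0.49 in T cells). Eif4ebp1 was uncalled from few counts (-1.17 ± 0.58 and -1.79 ± 0.78), and so was Eif4enif1 (-0.77 ± 0.38 and -0.42 ± 0.36). None of the joining factors was called, with Eif5a at -0.63 ± 0.30 and -0.25 ± 0.30, Eif6 at -0.04 ± 0.28 and -0.45 ± 0.28, Eif5b at 0.41 ± 0.37 and 0.14 ± 0.38, and Eif5a2, with 0 footprints in B cells, at 0.81 ± 0.54 in T cells.

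The spread between RNA-seq libraries of a cell type was itself shared between the cell types. Over the 50 genes with at least 50 counts, 25 were higher in library 1 than in the other library in both B and T cells and 12 were lower in both, so 74.0% had the same sign, against 69.6% of 9045 genes with that depth. Eif2s3x was higher in library 1 by 0.74 on the log2 scale in B cells and 0.66 in T cells, Eif4a2 by 0.58 and 0.46, Eif5 by 0.54 and 0.60, Eif1 by 0.54 and 0.31, and Eif3a by 0.52 and 0.42. Eif2ak3 was higher by 0.34 and 0.65, while Eif2ak4 was lower in library 1 in B cells (-0.10) and higher in T cells (0.63). Number 1 is all that the labels give, and the stress-induced phosphatase subunit gene Ppp1r15a, named after its values were seen, differed in the same way, with 1369 and 716 CPM in B cells, against 1588 and 402 CPM in T cells of mRNA. With a term for the libraries numbered 1, added after the data were seen, Eif2ak3, Eif2ak4 and Eif4ebp1 were called higher in B cells, as without it.

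**Figure D4:**
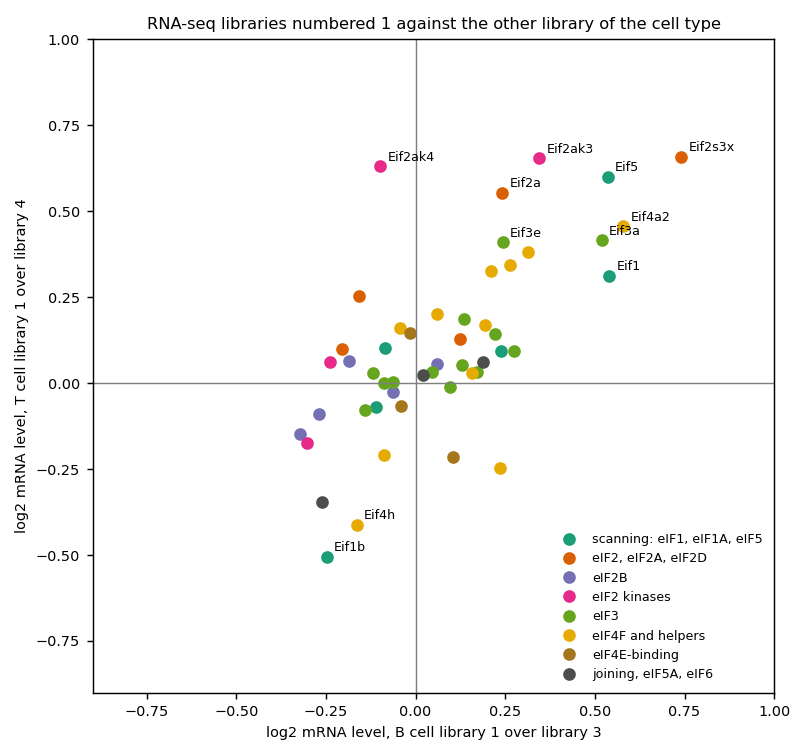
Log2 ratio of the mRNA level in the RNA-seq library numbered 1 over the other library of the cell type, in B cells (horizontal) and T cells (vertical), for the 50 initiation factor genes with at least 50 counts, coloured by role. Of these genes 25 lie at the upper right and 12 at the lower left, with Eif2s3x farthest out.

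The partners of these factors were read from 2 lists chosen by role, 14 genes around eIF2 and the stress response and 25 around the cap, poly(A) tail and mTOR. In mRNA edgeR called 1 of 39 upward in B cells and 3 downward, 10.3% of them, against 18.5% of all genes. The counts were 5 upward and 5 downward in DESeq2 and 6 and 6 with the term for libraries numbered 1. The share of all genes called was not computed for either setting, so these counts cannot be set against it. Sesn2, a stress-induced restraint on mTOR, had 16.2 and 14.2 CPM in B cells, against 7.62 and 5.39 CPM in T cells (1.22 ± 0.27, adjusted p = 0.0447). Dnajc3, an inhibitor of PERK and PKR, had 76.9 and 68.5 CPM in B cells, against 148 and 123 CPM in T cells (-0.90 ± 0.15, adjusted p = 0.0227). Pdcd4, which binds and inhibits eIF4A, had 149 and 140.4 CPM in B cells, against 279.6 and 292 CPM in T cells (-0.98 ± 0.14, adjusted p = 0.015). Nck1, an adaptor that lowers eIF2 phosphorylation, had 11.7 and 15.6 CPM in B cells, against 24.8 and 30.7 CPM in T cells (-1.02 ± 0.24, adjusted p = 0.047). All 4 were apart between groups, as were 66.7% of the 39 partners and 61.2% of all genes. The 4 were picked by their adjusted p, so this adds no support. Without the filter Sesn2 and Nck1 were uncalled (adjusted p = 0.0619 and 0.0764), and without B cell library 3 all 4 were (adjusted p = 0.0722 to 0.116). Atf4, the transcription factor whose translation rises when eIF2 is phosphorylated, had 852 and 512 CPM in B cells, against 588 and 312 CPM in T cells, overlapping (0.60 ± 0.41). Pabpc1, the poly(A)-binding protein that loops onto eIF4G, had 1299.8 and 945 CPM in B cells, against 1759 and 1192 CPM in T cells, overlapping (-0.39 ± 0.29). The median log2 difference was 0.07 in each list. In footprints and in translational efficiency 0 of the partners were called in edgeR (2 and 0 at an unadjusted p below 0.05) and 0 in DESeq2.

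Several partners had footprint ratios of the size of that of Eif4ebp2, here too without regard to coding length. In B cells 4 of 39 partners had more footprints than mRNA and 7 had fewer, and in T cells 4 had more and 7 had fewer. That is 28.2% of them in each cell type, against 18.8% of all genes in B cells and 27.5% in T cells. The calls of Pabpc1, Pabpc4 and Ppp1cb in both cell types and of Ppp1cc in B cells held in all 14 alternatives run. For T cells the replicate block among these rests on a single library per assay. Atf4 had 51.5 and 168 CPM of footprints, against 852 and 512 CPM of mRNA in B cells (-2.87 ± 0.61, adjusted p = 0.0138). In T cells Atf4 had 109 and 239 CPM of footprints, against 588 and 312 CPM of mRNA (-1.72 ± 0.58, adjusted p = 0.0556). Pabpc1, a known TOP mRNA, was at -2.06 ± 0.35 in B cells (adjusted p = 0.00583) and -2.87 ± 0.36 in T cells (adjusted p = 0.00118), with 262 and 368 CPM of footprints, against 1299.8 and 945 CPM of mRNA in B cells. Its relative Pabpc4 had 9.36 and 5.26 CPM of footprints, against 165 and 127 CPM of mRNA in B cells (-4.52 ± 0.52, adjusted p = 0.00118; -4.04 ± 0.49 in T cells, adjusted p = 0.00107). Of the catalytic subunits of the phosphatase that reverses eIF2 phosphorylation, Ppp1cc was lower (-2.26 ± 0.33 in B cells and -1.90 ± 0.32 in T cells) and Ppp1cb higher (1.71 ± 0.28 and 1.69 ± 0.28), all 4 of them called. Pdcd4 had more footprints than mRNA, with 459 and 447 CPM of footprints, against 149 and 140.4 CPM of mRNA in B cells (1.42 ± 0.28, adjusted p = 0.0114) and 712 and 518 CPM of footprints, against 279.6 and 292 CPM of mRNA in T cells (0.90 ± 0.28, adjusted p = 0.0434). Gigyf2, which acts with the cap-binding Eif4e2, was higher in B cells (0.999 ± 0.23, adjusted p = 0.0193), and Paip2, an inhibitor of the poly(A)-binding protein, in T cells (1.25 ± 0.30, adjusted p = 0.017). The median ratio of the stress list was 0.03 in B cells and -0.33 in T cells, and that of the cap list was 0.30 in B cells and 0.18 in T cells.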

How the data were processed

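RNA-seq and ribosome profiling of resting splenic B and T cells gave 8 libraries, 2 per cell type and assay. The values deposited by the authors are raw counts per gene, since they are whole numbers with unequal library totals. Per the submitters' processing notes, HTSeq, TopHat, Bowtie2 and FastQC were used with mm10. Versions, counted feature and strand setting were not given in the sources used here, so overlapping genes (13 of the 54 overlap another protein-coding gene) could share reads. Whether the libraries of a group are from different animals is not stated in the labels, and the p-values then cover only how far these libraries differ. Groups may hold mice of both sexes: RNA-seq counts of the Y-linked Eif2s3y were 0 in libraries numbered 1, against 907 and 815 in the others. The part of this in the results was not tested.

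Of the 53801 gene IDs, 53620 had a symbol. Counts were tested by the quasi-likelihood test of edgeR 4.0.16 (R 4.3.3), with TMM, filterByExpr (minimum count 10, total 15) and Benjamini-Hochberg adjustment over all genes tested, at 0.05. B cells were set against T cells within each assay (2 residual degrees of freedom). Translational efficiency and footprints over mRNA came from a single model of all 8 libraries (4 residual degrees of freedom). Libraries of a group differed beyond counting error (chi-square over its degrees of freedom 4.43 to 29.5). Log2 differences carry standard errors and CPM standard deviations, with n = 2 per group, and bounds of 3 counts cover counting error only. The alternatives were DESeq2 1.42.0, RLE scaling, no filter beyond 1 count, TMM per assay, protein-coding genes only, all 8 libraries in 1 fit, thinned RNA-seq, a replicate block, each library left out and, added after seeing the data, a model term for RNA-seq library number 1. The tests were tested on simulated data.

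The genes, role lists, partner lists and tests were chosen with earlier results of these data known. Named whatever their result were the genes of eIF4F, the eIF4E-binding proteins, Eif2s1, the eIF2 kinases, Eif1, Eif1b, Eif5, Eif5a and Eif6. Added were, per comparison, genes past the threshold (at most 10, by smallest p), the highest and lowest of each role list, up to 3 partners past the threshold in each direction, and Atf4, Pabpc1 and Pdcd4. Where 11 or 16 genes passed, those beyond 10 are named in brief. The planned paralogue shares and subunit balance per coding length were not computed, because no lengths were used here, and count ratios within a gene pair stand in for the first. Ratios were computed for more pairs than are shown. Sequences are from RefSeq, GRCm38.p6. Gcn1 was matched by its older symbol, Gcn1l1.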

Additional observations from a re-analysis of the deposited data

How the results depend on the processing

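The direction of every named value that was called, partners included, held under all alternatives run. Depth limits the footprint tests: 13 of the 54 genes had too few footprints to test between cell types. Between B and T cells, genes called higher in mRNA numbered 3, and 2 to 3 with a library left out. They numbered 0 with RNA-seq thinned to footprint depth, where fewer counts were tested. Genes called lower in mRNA numbered 0, and 1 with DESeq2. Footprint calls higher in B cells numbered 0, and 0 to 1 with a library left out. Partners higher in mRNA numbered 1, with 0 to 1 when a library was left out, 5 with DESeq2, 0 without the filter, 4 over protein-coding genes only, 0 thinned and 6 with the term for libraries numbered 1. Partners lower numbered 3, with 0 to 4 when a library was left out, 5 with DESeq2 and 6 with that term. For footprints over mRNA in B cells, genes higher numbered 2, with 0 to 3 when a library was left out, 4 with DESeq2 and 1 without the filter. Genes lower numbered 9, with 3 to 8 when a library was left out. Partners higher numbered 4 (1 to 4 with a library left out, 9 with DESeq2) and partners lower 7 (3 to 8). In T cells genes higher numbered 4 (0 to 6 with a library left out, 9 with DESeq2) and genes lower 12 (4 to 14). Partners higher numbered 4 (1 to 7, and 8 with DESeq2) and partners lower 7 (3 to 9). The lowest counts in T cells came without T cell footprint library 2 (4 lower) and without T cell footprint library 1 or RNA-seq library 4 (0 higher each), and in B cells without RNA-seq library 1 (3 lower, 0 higher). The median of the genes in T cells was -0.42, with -0.44 to -0.29 when a library was left out, -0.29 under RLE scaling, -0.32 in DESeq2 and -0.30 with TMM within each assay. Eif1, Eif3m and Eif4ebp2 were called lower in B cells, and Eif4a2, Eif4b and Eif4ebp2 in T cells, in all 14 alternatives. In T cells the replicate block, which is among them, rests on a single library per assay. The cause of these changes was not tested. Shares called over all genes were computed for the main edgeR tests and not for the alternatives.

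Between B and T cells the libraries share a single number, 1, within an assay, too few for a replicate block on both numbers, and the labels do not tie numbers to animals. The libraries numbered 1 deviated together between B and T cells in mRNA (r = 0.594 over 7370 genes, and 0.0817 in footprints), and the term for number 1 above is the fit that holds this. Across assays they did not, with r = -0.0073 in B cells and -0.0788 in T cells, so across assays the samples share only a number. The replicate block joined libraries of a cell type by number across assays. With it, footprints over mRNA gave 0 higher and 7 lower in B cells. The B cell libraries numbered 1 differ in Eif2s3y, with 18 footprint counts and 0 RNA-seq counts, so this pairing may not join like samples. In T cells number 1 alone is in both assays, so the T cell ratios of this fit (median -0.25) rest on 1 library per assay. Its calls in T cells are included in the 14 alternatives above, but neither they nor those in translational efficiency are read as support.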

Other observations

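Eif2s3y, the Y-linked homologue of Eif2s3x left out by the rule, had 0 counts in the RNA-seq libraries numbered 1 of both cell types, against 907 in B cell library 3 and 815 in T cell library 4. In footprints it had 18 and 14 counts in B cells, against 1 and 5 in T cells. In the same RNA-seq libraries Eif2s3x had 1775 and 1091 counts in B cells, against 2355 and 1435 in T cells, in each case more where Eif2s3y was at 0. The pseudogene Eif4a-ps4 had 145 and 159 RNA-seq counts in B cells, against 224 and 189 in T cells, and 0 footprints in all 4 footprint libraries.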
